A study of Mus musculus with 36 samples.

Results

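The RNA polymerase I (Pol I) machinery was followed as 10 genes, chosen by name and looked up by symbol in the deposited expression table. They are the subunit genes Polr1a, Polr1b, Polr1c, Polr1d and Polr1e, the initiation factor genes Rrn3 and Ubtf, and the selectivity factor genes Taf1b, Taf1c and Taf1d. All 10 were among the 12762 genes of the table, and all 10 also passed the filter on low values that was used as an alternative. Messenger RNA was sequenced from B3, a line of dividing B cell progenitors of the mouse at the pre-B stage, in 36 libraries from 2 lines at 0, 2, 6, 12, 18 and 24 h, with n = 3 libraries in each of the 12 groups. The Ikaros line carries an MSCV retroviral vector for haemagglutinin-tagged wild type Ikaros joined to the ERt2 hormone-binding domain of the estrogen receptor, with GFP behind an internal ribosomal entry site, so that 4-hydroxy-tamoxifen (4-OHT) moves the fusion protein into the nucleus. The control line carries the same kind of vector with ERt2 and GFP but no Ikaros. Both lines are populations sorted on GFP, the fusion protein is driven from a viral vector and not from the Ikzf1 locus, and control cells express Ikzf1 of their own. By their labels all libraries had 0.5 uM 4-OHT, whereas the methods describe the 0 h cells as untreated and collected on separate occasions. The replicates are separate culture batches, 1, 2 and 4 at 0 h and 1, 3 and 4 at the later times. By the methods, induced Ikaros cells stop dividing in the G1 phase before the 18 h samples. The part of that arrest in the results below was not tested.

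Values are log2 expression after the authors' normalization, relative to a constant of the whole table, so a level was compared between libraries for 1 gene. Levels of different genes were set side by side only to place markers and low values and for pairs of members inside a library. Each comparison came from limma with Benjamini-Hochberg adjustment across the 12762 genes, and a call means an adjusted p under 0.05. Such values do not show how deeply a library was sequenced, and the number of libraries limits the precision. Library medians lay between 11.70 and 11.73. Ikzf1, the gene of Ikaros, lay between 13.95 and 14.85 in the 18 control libraries and between 19.63 and 20.93 in the 18 Ikaros libraries, so every library matched its line. All 10 pre-B cell markers were in the table, 6 of them at or above the median gene, and Dntt was among those below the 25th percentile. None of 6 T cell markers, 2 of 6 myeloid markers (Lyz2 and Itgam) and 2 of 6 erythroid markers (Klf1 and Epor) were in the table, all 4 below the 25th percentile. Group means lay from 4.56 to 9.37 for Lyz2, highest in Ikaros cells at 0 h, and from 4.08 to 9.89 for Itgam, highest in Ikaros cells at 18 h. Their part in the results below was not tested. In bulk samples, fewer cells of a type and less RNA per cell cannot be told apart.

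Pol I is the nuclear polymerase that transcribes the tandem ribosomal DNA repeats in the nucleolus into the precursor of the large ribosomal RNAs, and its activity is coupled to cell growth and division. Ubtf binds along the repeats and opens their chromatin, the selectivity factor SL1 (TBP with Taf1a, Taf1b, Taf1c and Taf1d) marks the promoter, and Rrn3 bridges SL1 and a polymerase that is ready to start. The libraries were made from polyadenylated RNA, so they report the messenger RNAs that encode the machinery and not the ribosomal RNA that it makes.

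RefSeq promoters of 300 bases (most of them before the start site, build GRCm38.p6) were found for all 10 genes, 16 promoters in all. Those of Polr1b and Polr1a are shown as the members with the largest differences between the lines at 24 h, that of Rrn3 as the only member promoter with a CACGTG E-box, and that of Polr1d as a member that was higher in Ikaros cells. All 4 are written 5′ to 3′ on the strand of the gene. Capitals mark matches to CACGTG, a palindrome bound by Myc family factors, or to TGGGAA, the core sequence bound by Ikaros, searched on both strands. The Polr1b promoter is chr2:129100746-129101045 on the + strand, that of Polr1a chr6:71908803-71909102 (+), that of Rrn3 chr16:13780449-13780748 (+) and that of Polr1d chr5:147077096-147077395 (+).
Polr1b: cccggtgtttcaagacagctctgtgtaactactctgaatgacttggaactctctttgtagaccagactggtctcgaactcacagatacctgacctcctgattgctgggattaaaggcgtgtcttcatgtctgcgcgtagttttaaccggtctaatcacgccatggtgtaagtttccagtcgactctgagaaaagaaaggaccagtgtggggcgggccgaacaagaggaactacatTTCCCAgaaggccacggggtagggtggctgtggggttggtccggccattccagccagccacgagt
Polr1a: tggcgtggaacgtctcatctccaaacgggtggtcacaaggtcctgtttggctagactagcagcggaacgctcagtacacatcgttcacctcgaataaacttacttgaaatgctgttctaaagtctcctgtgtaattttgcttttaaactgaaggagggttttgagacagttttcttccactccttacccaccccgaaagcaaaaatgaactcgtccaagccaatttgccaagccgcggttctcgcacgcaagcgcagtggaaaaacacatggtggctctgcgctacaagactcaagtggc
Rrn3: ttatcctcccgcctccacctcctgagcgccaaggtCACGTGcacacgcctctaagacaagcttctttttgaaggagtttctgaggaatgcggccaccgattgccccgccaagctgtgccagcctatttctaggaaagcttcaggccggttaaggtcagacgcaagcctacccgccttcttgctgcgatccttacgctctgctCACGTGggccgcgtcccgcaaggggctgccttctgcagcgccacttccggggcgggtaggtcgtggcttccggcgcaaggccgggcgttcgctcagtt
Polr1d: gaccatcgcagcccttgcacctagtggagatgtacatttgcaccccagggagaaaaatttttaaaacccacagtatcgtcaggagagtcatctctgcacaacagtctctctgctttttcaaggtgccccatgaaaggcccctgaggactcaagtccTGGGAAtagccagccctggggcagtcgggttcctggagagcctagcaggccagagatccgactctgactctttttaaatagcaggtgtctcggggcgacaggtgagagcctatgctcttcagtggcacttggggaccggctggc
CACGTG was found in 7.15% of the 32851 promoters of the reference and in 1 of the 16 promoters of the 10 genes, that of Rrn3, where it occurred at 215 and at 48 bases before the start site. TGGGAA was found in 25.6% of all promoters and in 4 of these 16, a share near that of all promoters. It lay 15 bases before the start on the opposite strand in Polr1b, 94 before in Polr1d, 54 before in 1 of the 6 promoters of Ubtf and 165 before in Polr1c. The Polr1a window held neither. A match is a description of letters and not of binding.

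At 24 h, 7 of the 10 genes were lower in Ikaros cells than in control cells, 2 were higher (Taf1b and Polr1d) and 1 (Taf1c) was not called. Polr1b, Polr1a and Taf1d had the largest differences, and the falls of Polr1b and Polr1a had been called since 2 h and 6 h. The call counts were read against a background that was itself large. At 0 h none of the 10 was called by limma, where 8.33% of all genes were. With culture batch as a block 1 of the 10 was called, and 1361 of the 12762 genes. At an unadjusted p under 0.05 there was 1 of the 10, and 2424 of the 12762 genes. At 2 h the count was 2, both lower in Ikaros cells, when 19.1% of all genes were called and 9.88% were called lower. By 6 h it was 3, all lower (37.3% of all genes called, 19.2% lower), and by 12 h it was 7, of which 6 were lower and 1 higher (45.8% called, 22.8% lower and 23.0% higher). The 18 h count was 6, all lower (58.2% called, 29.2% lower). In the last samples, at 24 h, it was 9, where 62.9% of all genes were called, 31.9% lower and 31.0% higher. Without replicate 1, without replicate 2 and with library preparation as a covariate the 24 h count was 6. The calls of Polr1d, Polr1e and Ubtf were lost each time. Calls over all genes fell too, from 8024 of 12762 in the main fit to 6576, 6248 and 6645 in the same order. Over the 6 times in order, the median difference of the 10 genes was -0.12, -0.14, -0.28, -0.52, -0.68 and -0.58 in log2 units, while the median of all genes lay between -0.03 and 0.00 at every time.

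**Figure D1:**
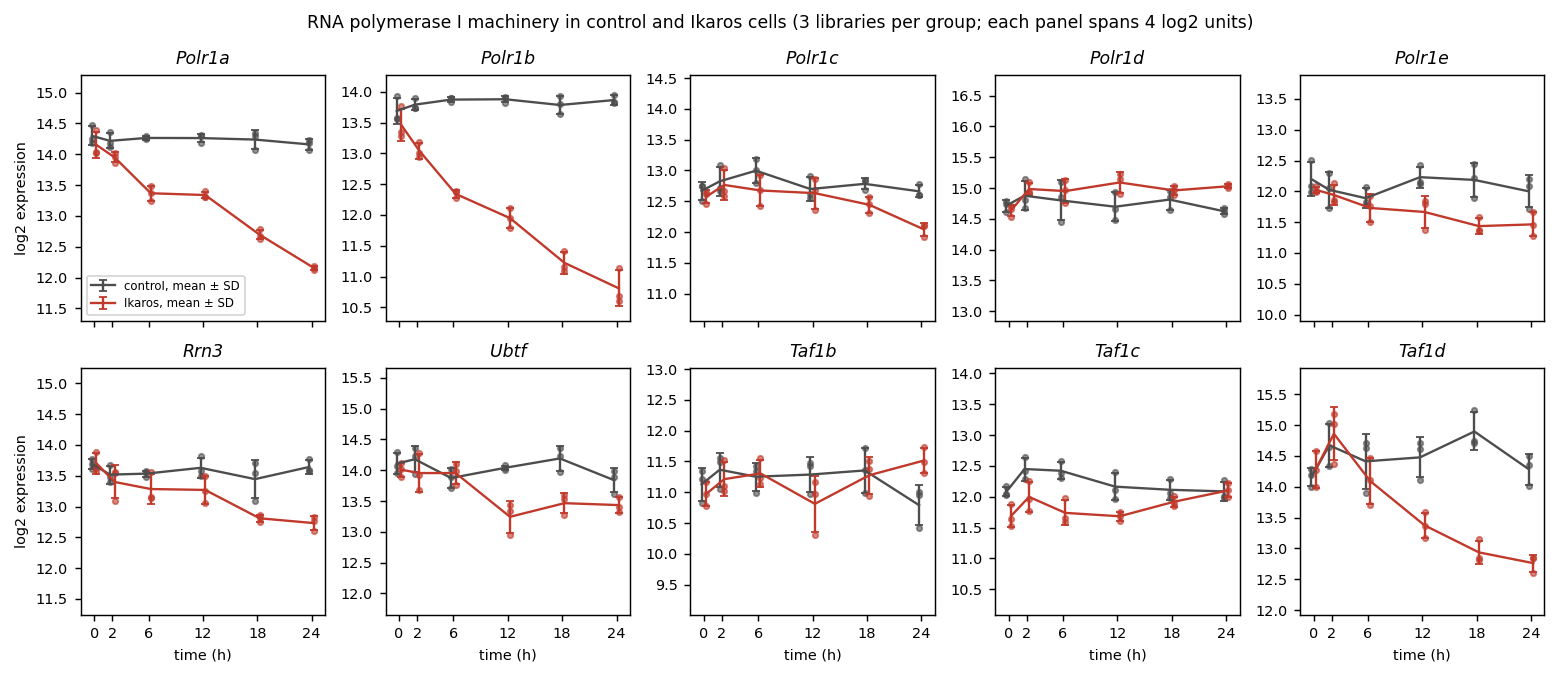
Log2 expression (vertical axis) of each of the 10 genes against time in hours. Points are libraries, lines join the means of control cells (grey) and Ikaros cells (red), bars are SD with n = 3, and every panel spans 4 log2 units around its own level. Control means stay within 0.14 for Polr1a and 0.19 for Polr1b, whereas their Ikaros means descend by 2.00 and 2.65.

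The largest falls were those of Polr1b and Polr1a. Polr1b (ENSMUSG00000027395, chr2:129100995-129126594, + strand of GRCm38) encodes the second largest subunit, which forms the active centre together with Polr1a. At 0 h the log2 level of Polr1b was 13.56, 13.57 and 13.93 in control and 13.34, 13.28 and 13.77 in Ikaros libraries. At 2 h the control libraries were at 13.90, 13.74 and 13.73 and the Ikaros libraries at 13.01, 13.18 and 12.93. The lines overlapped at 0 h and had parted by 2 h, within the first interval sampled. At 6 h Polr1b was at 13.90, 13.83 and 13.89 in control and 12.37, 12.39 and 12.27 in Ikaros libraries. At 24 h it was at 13.83, 13.95 and 13.81 in control and 10.60, 11.14 and 10.68 in Ikaros libraries. No Ikaros library reached the lowest control library from 2 h on. In time order the differences were -0.23, -0.75, -1.53, -1.93, -2.56 and -3.06 (SE 0.13 for each). The 24 h value is an 8.32-fold lower level, or 12.0% of control (limma, adjusted p = 2.29e-16), and within the 3 culture batches it lay between -3.23 and -2.81. All 5 later times were called, and the largest of their adjusted p-values was 0.000199, at 2 h.

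Polr1a (ENSMUSG00000049553, chr6:71909053-71984935, + strand) encodes the largest subunit. Its level at 0 h was 14.18, 14.25 and 14.47 in control and 14.04, 14.02 and 14.39 in Ikaros libraries, and the ranges overlapped. At 6 h it was 14.24, 14.26 and 14.29 in control and 13.48, 13.38 and 13.24 in Ikaros libraries. At 24 h it was 14.19, 14.23 and 14.07 in control and 12.16, 12.12 and 12.19 in Ikaros libraries, which were below every control library and had an SD of 0.04. The difference was -0.27 at 2 h (adjusted p = 0.0557, and 0.0418 with culture batch as a block), then -0.90, -0.92, -1.54 and -2.0 from 6 to 24 h (SE 0.10). The 24 h level was 24.9% of control (adjusted p = 1.42e-15). The Ikaros mean of Polr1a was 13.37 at 6 h and 13.34 at 12 h, and it fell in both of the later steps.

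Polr1e (ENSMUSG00000028318, chr4:45018583-45036565, + strand) encodes a subunit that forms a dimer with Polr1g on the side of the enzyme. Its level at 18 h was 12.22, 12.44 and 11.90 in control and 11.37, 11.58 and 11.36 in Ikaros libraries, with no overlap. At 24 h it was 12.09, 12.20 and 11.71 against 11.45, 11.28 and 11.66, where the highest Ikaros library lay just under the lowest control library. The differences of the last 3 times were -0.56, -0.75 and -0.54 (SE 0.17, adjusted p = 0.00937, 0.000601 and 0.00928), and those of the first 3 lay between -0.17 and -0.08 without a call. The 24 h call was lost without replicate 1 (-0.48, adjusted p = 0.107) and without replicate 2 (-0.34, adjusted p = 0.251), and it was also lost with library preparation as a covariate (-0.52, adjusted p = 0.0598). The 12 h call was lost without replicate 2 (adjusted p = 0.111), with library preparation (0.0594) and in a fit of the compared groups alone (0.0518).

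Polr1c and Polr1d are partners that form the assembly platform of both Pol I and Pol III, and their messenger RNAs went in opposite directions. Polr1c (ENSMUSG00000067148, chr17:46243920-46248054, − strand) was at 12.61, 12.60 and 12.78 in control and 12.10, 11.92 and 12.11 in Ikaros libraries at 24 h. Polr1d (ENSMUSG00000029642, chr5:147077050-147111597, + strand) was at 14.57, 14.67 and 14.63 in control and 14.99, 15.03 and 15.06 in Ikaros libraries at that time. Neither pair of groups overlapped at 24 h. Polr1c fell by 0.62 on the log2 scale against control (SE 0.15, adjusted p = 0.000815), a call that was kept in all alternatives run. Polr1d was higher by 0.41 (SE 0.14, adjusted p = 0.0136), or 132.5% of control, and had been called at 12 h as well (0.39, adjusted p = 0.0229) but not at 18 h (0.15, adjusted p = 0.372). The Polr1d call at 24 h was lost without replicate 1 (adjusted p = 0.0568), without replicate 2 (0.0994) and with library preparation as a covariate (0.104), although the sign held in all 3 batches. Its 12 h call was lost without replicate 1 (0.239) and replicate 2 (0.101), with library preparation (0.101) and in the fit of the compared groups alone (0.122). With culture batch as a block, Polr1c was called at 6 h too (-0.32, adjusted p = 0.0469) and at 18 h (-0.34, adjusted p = 0.0249).

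**Figure D2:**
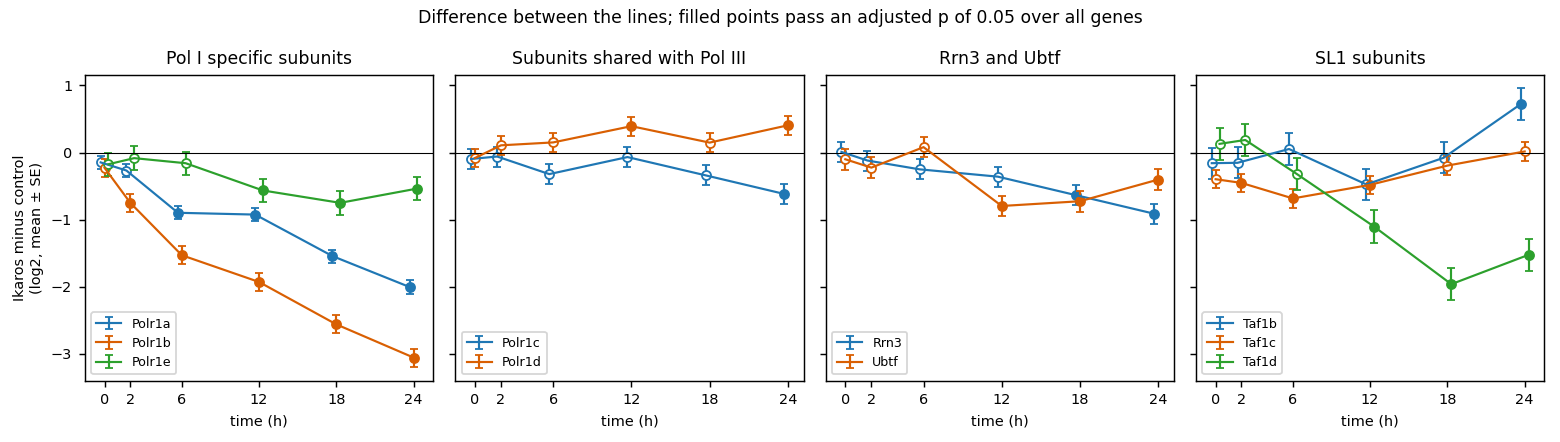
Ikaros minus control difference in log2 units (vertical axis, mean ± SE from limma) against time in hours, in 4 panels by role. Filled points have an adjusted p under 0.05 over all 12762 genes. Polr1b and Polr1a reach -3.06 and -2.0 at 24 h, and Polr1d and Taf1b end above 0. Taf1c starts at -0.40 at 0 h and ends at 0.02.

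Rrn3 and Ubtf, which act at initiation, were called later than Polr1a and Polr1b and by smaller differences. Rrn3 (ENSMUSG00000022682, chr16:13780708-13814839, + strand) encodes the factor that makes Pol I competent to initiate. It was at 13.60, 13.70 and 13.78 in control and 13.63, 13.58 and 13.89 in Ikaros libraries at 0 h, and these overlapped. At 18 h it was at 13.70, 13.54 and 13.09 in control and 12.82, 12.86 and 12.75 in Ikaros libraries, and at 24 h at 13.57, 13.77 and 13.59 against 12.77, 12.82 and 12.60. At both of these times the Ikaros libraries were below all control libraries. The difference went from 0.01 at 0 h through -0.12, -0.25 and -0.36 to -0.64 at 18 h (adjusted p = 0.000658) and -0.91 at 24 h (SE 0.15, adjusted p = 6.65e-06), or 53.1% of control. The 12 h value had an adjusted p of 0.0504, and 0.0434 with culture batch as a block.

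Ubtf (ENSMUSG00000020923, chr11:102304560-102319742, − strand) encodes the architectural factor of active ribosomal DNA. It was at 14.03, 14.08 and 14.01 in control and 13.44, 13.34 and 12.96 in Ikaros libraries at 12 h, with a wide gap between the lines. At 24 h it was at 13.90, 13.99 and 13.62 against 13.41, 13.33 and 13.57, where the gap was small. The difference was 0.08 at 6 h, -0.80 at 12 h (SE 0.15, adjusted p = 0.000111), -0.73 at 18 h (adjusted p = 0.000213) and -0.40 at 24 h (adjusted p = 0.0244). The 24 h call was lost without replicate 1 (-0.36, adjusted p = 0.126), without replicate 2 (-0.27, adjusted p = 0.348) and with library preparation as a covariate (-0.38, adjusted p = 0.112).

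At 24 h 1 SL1 gene of the set was called lower (Taf1d), 1 higher (Taf1b) and 1 not (Taf1c). Taf1b (ENSMUSG00000059669, chr12:24498359-24558539, + strand) encodes the SL1 subunit that resembles the Pol II initiation factor TFIIB. At 24 h it was at 11.01, 10.95 and 10.41 in control and 11.50, 11.31 and 11.73 in Ikaros libraries, all Ikaros libraries being above. From 18 h to 24 h the control mean of Taf1b went from 11.35 to 10.79, the lowest of its 12 group means. Over the same step the Ikaros mean went from 11.28 to 11.51, the highest of the 12. The difference was 0.72 (SE 0.23, adjusted p = 0.00870), after values between -0.48 and 0.05 without a call at the 5 earlier times. Without replicate 3, which holds the lowest control library, it was 0.43 and not called (adjusted p = 0.114), and within the 3 batches it ran from 0.36 to 1.32.

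Taf1c (ENSMUSG00000031832, chr8:119597871-119605222, − strand), an SL1 subunit that contacts Rrn3, had its difference early. At 6 h it was at 12.38, 12.31 and 12.57 in control and 11.65, 11.97 and 11.59 in Ikaros libraries, without overlap. At 24 h it was at 11.97, 12.02 and 12.27 against 12.10, 11.99 and 12.22, and the lines were mixed. The difference was -0.40 at 0 h (adjusted p = 0.0720, and 0.0117 with culture batch as a block), -0.45 at 2 h (adjusted p = 0.0192), -0.68 at 6 h (adjusted p = 0.000263), -0.48 at 12 h (adjusted p = 0.00490), -0.19 at 18 h and 0.02 at 24 h (SE 0.14). All Ikaros libraries were already below all control libraries at 0 h, when 18.4% of all genes had that order. The 2 h call was lost without replicate 1 (-0.35, adjusted p = 0.334), without replicate 2 (-0.52, adjusted p = 0.138), with library preparation (0.0854) and in the fit of the compared groups alone (0.211), and the 12 h call without replicate 2 (-0.47, adjusted p = 0.0808) and in the fit of the compared groups alone (0.0515). Exons of Taf1c and of Dnaaf1 on the opposite strand share 584 bases, and the strand setting of the counting was not given in the sources used here.

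Taf1d (ENSMUSG00000031939, chr9:15306214-15316991, + strand), a further SL1 subunit, had the largest difference of the initiation factors. It was at 14.64, 14.34 and 15.03 in control and 15.03, 14.37 and 15.19 in Ikaros libraries at 2 h, fully mixed. At 12 h it was at 14.11, 14.61 and 14.71 against 13.37, 13.58 and 13.17, and at 18 h at 14.70, 15.25 and 14.74 against 12.81, 13.15 and 12.85. The lines had separated by 12 h. At 24 h the control libraries were at 14.49, 14.35 and 14.01 and the Ikaros libraries at 12.60, 12.84 and 12.84. The difference was -0.32 at 6 h (adjusted p = 0.320), -1.10 at 12 h (adjusted p = 0.000519), -1.96 at 18 h (adjusted p = 1.14e-07) and -1.52 at 24 h (SE 0.24, adjusted p = 4.79e-06). The value is uncertain because Taf1d hosts small nucleolar RNA genes. In GENCODE M21, 8 of them that are in the table overlap its annotated exons on the same strand, and their own 24 h differences ran from -1.44 to 1.24, with 2 called lower, 1 higher and 5 not called. On the opposite strand it shares 235 exonic bases with 4931406C07Rik (-0.34 at 24 h) and 77 with Cep295 (-1.44 at 24 h).

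All 3 libraries of one line were beyond all 3 of the other in 1, 3, 3, 6, 7 and 9 of the 10 genes over the 6 times in order. Among all genes the shares in the same order were 32.7%, 27.9%, 41.0%, 51.0%, 64.5% and 71.0%. In the order of the 24 h differences, Polr1b stood apart from Polr1a by 1.05 against a combined SE of 0.17. Polr1a and Taf1d were 0.48 apart (combined SE 0.26), Taf1d and Rrn3 0.61 (0.29), and Rrn3 and Polr1c 0.30 (0.21). Polr1c, Polr1e and Ubtf followed each other at gaps of 0.08 and 0.13, below the combined SE of 0.23 at each. From Ubtf to Taf1c the gap was 0.42 (0.20), to Polr1d a further 0.39 (0.19) and to Taf1b a further 0.32 (0.27). These SEs take the genes as independent although they come from the same libraries, so the gaps are a description.

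The lines may differ before induction, so the change of the difference from 0 h was fitted as well. By 24 h it was called for 7 of the 10 genes, of which 5 (Polr1b, Polr1a, Taf1d, Rrn3 and Polr1c) went down and 2 (Taf1b and Polr1d) went up, where 48.4% of all genes were called, 24.2% in each direction. None of the 10 was called at 2 h by limma, where 3.1% of all genes were called. At an unadjusted p under 0.05 there was 1, and the share of all genes at that looser threshold is not given here. Polr1b was at -0.52 and was called with the culture batches blocked and the 0 h occasions kept separate (adjusted p = 0.0233). At 6 h Polr1b (-1.30) and Polr1a (-0.75) were called, against 15.9% of all genes. At 12 h Taf1d (-1.23) and Ubtf (-0.70) joined them (29.7%), and at 18 h Rrn3 (-0.65) did (43.0%). The 24 h changes were -2.83 for Polr1b, -1.86 for Polr1a, -1.65 for Taf1d, -0.92 for Rrn3, -0.52 for Polr1c, 0.49 for Polr1d and 0.88 for Taf1b. With culture batch as a block, Polr1d at 12 h (0.47, adjusted p = 0.0371), Polr1e at 18 h (-0.58, adjusted p = 0.0447) and Taf1c at 24 h (0.41, adjusted p = 0.0195) were called in addition.

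These changes from 0 h were less stable for the members with small differences. At 24 h the calls of Polr1c and Polr1d were lost without any 1 of the replicates 1, 2 and 3 and with library preparation as a covariate, and that of Taf1b without replicate 1 (adjusted p = 0.155), without replicate 3 (0.237) and with library preparation (0.128). At 18 h those of Rrn3 and Ubtf were lost without replicate 1, without replicate 2 and with library preparation, and at 12 h that of Ubtf without replicate 2 (0.273) and that of Taf1d without replicate 2 (0.127) and without replicate 3 (0.0659). The F test over the 5 changes called 7 of the 10 genes, against 59.8% of all genes, and not Polr1c, Polr1d or Polr1e. Its calls for Taf1b (adjusted p = 0.0497) and Taf1c (0.0366) were near the threshold, and it called 3 genes without replicate 1, 3 without replicate 2 and 4 with library preparation as a covariate.

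Each line was also read against its own 0 h cells, where culture occasion and drug go with time and cannot be told apart from it. In control cells no member was called at any time by limma. The shares of all genes called over the 5 later times were 0.047%, 5.1%, 0.0549%, 0.478% and 0.47%. At the looser unadjusted p under 0.05 there were 2, 2, 0, 1 and 0 members. The share of all genes at that threshold is not given here. With culture batch as a block, Polr1c (0.41, adjusted p = 0.0384) and Taf1c (0.31, adjusted p = 0.0471) were called at 6 h in control cells. In Ikaros cells the counts over these times were 1, 3, 6, 7 and 10, where 19.2%, 32.8%, 46.1%, 54.6% and 60.6% of all genes were called. At 24 h 7 members were below their 0 h level and 3 (Polr1d, Taf1b and Taf1c) above it, when 29.6% of all genes were called below and 31.0% above. The log2 changes were -2.65 for Polr1b, -2.0 for Polr1a, -1.52 for Taf1d, -0.97 for Rrn3, -0.57 for Ubtf, -0.56 for Polr1e and -0.53 for Polr1c. Taf1b was higher by 0.54 (adjusted p = 0.0463, but 0.108 with culture batch as a block), Taf1c by 0.42 and Polr1d by 0.40. Without replicate 2 the 24 h count was 5. The 2 h call, Polr1b (-0.42, adjusted p = 0.0304), was lost without replicate 1 (0.138), without replicate 3 (0.428), with library preparation (0.0900) and in the fit of the compared groups alone (0.171), while the block called Polr1a and Polr1d too.

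Between neighbouring times, Ikaros cells had 1 call in the step to 2 h, 3 to 6 h, 3 to 12 h, 3 to 18 h and 1 to 24 h, where 19.2%, 11.2%, 20.8%, 25.5% and 5.77% of all genes were called. Polr1b moved in each of the first 4 steps, by -0.42, -0.70, -0.39 and -0.72, and its last step of -0.41 had an adjusted p of 0.0705, and 0.0248 with culture batch as a block. Polr1a moved to 6 h (-0.58), to 18 h (-0.64) and to 24 h (-0.54), Taf1d to 6 h (-0.77) and to 12 h (-0.72), Ubtf to 12 h (-0.71) and Rrn3 to 18 h (-0.46). No step was called in control cells by limma, where 0.047%, 0.0392%, 1.13%, 0.0% and 0.0% of all genes were called. At the looser unadjusted p under 0.05 the member counts were 2, 0, 0, 0 and 3. The share of all genes at that threshold is not given here. Many of the step calls in Ikaros cells depended on 1 replicate. That to 12 h was lost for Polr1b without any 1 of the 3 replicates and for Taf1d without replicate 2 or 3 and for Ubtf without replicate 2. The step to 6 h was lost for Taf1d and that to 18 h for Rrn3 without any 1 of them, that to 6 h also for Polr1b without replicate 1 (adjusted p = 0.0542) and for Polr1a without replicate 2 (0.0558), and that to 24 h for Polr1a without replicate 1 or 2.

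The members were also compared with each other inside each library, for 3 pairs whose proteins belong to one complex. The size of such a difference is not read as a ratio of the 2 genes, only its shift between libraries. The pairs were chosen after the values were seen, so these are descriptions without a test. Polr1b minus Polr1a was -0.61 ± 0.07 (SD, n = 3) in control and -0.69 ± 0.06 in Ikaros cells at 0 h, and -0.30 ± 0.05 and -1.35 ± 0.32 at 24 h. Polr1c minus Polr1d was -2.05 ± 0.05 and -2.06 ± 0.02 at 0 h, and -1.96 ± 0.11 and -2.98 ± 0.11 at 24 h. Taf1b minus Taf1d was -3.02 ± 0.12 and -3.31 ± 0.10 at 0 h, and -3.49 ± 0.10 and -1.25 ± 0.24 at 24 h. In all 3 pairs the libraries of the lines were apart at 24 h, with no overlap. The choice of the pairs by their values favours this, and no share over other gene pairs was counted.

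**Figure D3:**
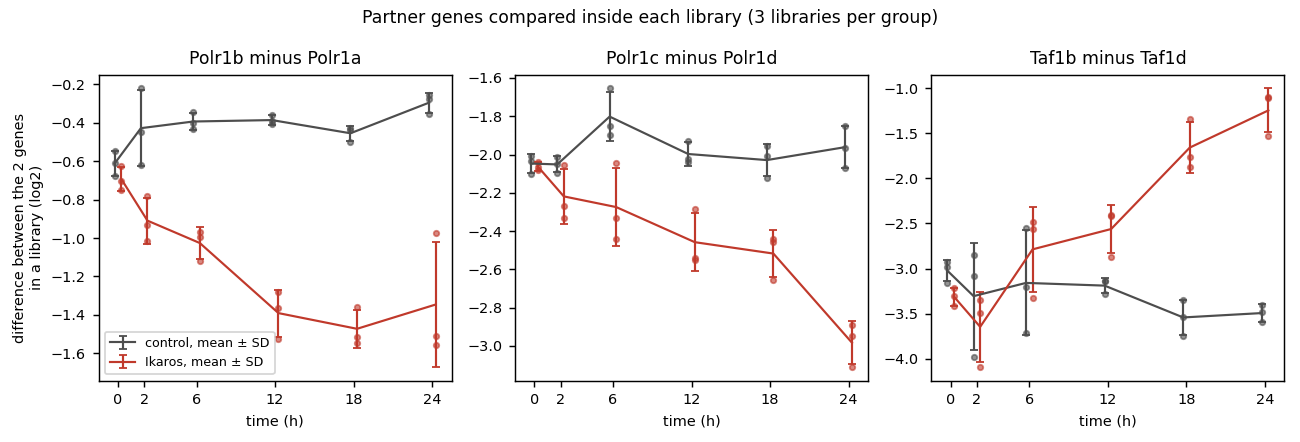
Difference between 2 partner genes inside each library in log2 units (vertical axis) against time in hours. Points are libraries, lines are means of control (grey) and Ikaros (red) cells, and bars are SD with n = 3. At 24 h the Ikaros means are -1.35 for Polr1b minus Polr1a, -2.98 for Polr1c minus Polr1d and -1.25 for Taf1b minus Taf1d, against -0.30, -1.96 and -3.49 in control cells.

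Over the 12 group means, the profile of Polr1b was most like that of Polr1a among the members (Pearson r = 0.98). It was followed by Rrn3 (0.94), Polr1e (0.93), Taf1d (0.89), Ubtf (0.82), Polr1c (0.79) and Taf1c (0.44), while Taf1b (-0.23) and Polr1d (-0.76) had a negative r. Outside the set, the 3 genes with a profile most like that of Polr1b were Nol9, which encodes a nucleolar polynucleotide kinase (r = 0.997), Tsr1, a ribosome maturation factor (0.996), and Spr, which encodes sepiapterin reductase (0.996). Closest to the mean profile of the 10 members were Ndufaf4 (0.995), a complex I assembly factor, Tomm5 (0.995), of the mitochondrial import channel, Tma16 (0.994), a factor of the large ribosomal subunit, Dus1l (0.994), a dihydrouridine synthase, and Rwdd4a (0.994). Group means share the time course and the 2 lines, so a high r is common among genes that move with them, and over the 36 libraries in place of the means only Tomm5 of these 5 stayed among the 5 closest and none of the 3 genes given for Polr1b stayed among its 3 closest, which were then St6galnac4, Trmt61a and Nat10.

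Further subunits of the Pol I enzyme and of SL1 were read from a list of 6 genes, all in the table. All 6 were lower in Ikaros cells at 24 h and called, with a median of -0.74 where the median of all genes was -0.01 and 31.9% of all genes were called lower. Cd3eap, which encodes the Polr1g subunit, was at 12.95 ± 0.12 (SD, n = 3) in control and 10.87 ± 0.12 in Ikaros cells, a difference of -2.08 (SE 0.12, adjusted p = 6.30e-14). It had been called since 2 h (-0.37). Twistnb, for Polr1f, was at -0.89, and Tbp, for the subunit of SL1 that all 3 polymerases use, at -0.75. The smallest differences were those of Znrd1 (-0.40, Polr1h) and Taf12 (-0.62). With the 10 members, 13 of these 16 genes were thus called lower at 24 h, 2 higher and 1 not. Among all genes 31.9% were called lower and 31.0% higher. The 16 include Taf12, which is not among the SL1 subunits named above, and leave out the subunits shared by all 3 polymerases.

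Of the 5 subunits that Pol I shares with both Pol II and Pol III, 4 were called lower at 24 h (31.9% of all genes), with a median of -1.34. The largest differences were those of Polr2h (-2.20, SE 0.13) and Polr2l (-1.69), and Polr2k was not called (-0.36, adjusted p = 0.117). All 5 had been called lower at 6 h, as had 19.2% of all genes. Of the 7 subunits specific to Pol II, 2 were called lower (Polr2d -0.73 and Polr2c -0.48), 2 higher (Polr2a 0.53 and Polr2g 0.46) and 3 not (Polr2b, Polr2i and Polr2j), with a median of -0.12, so the share called was near the 62.9% of all genes.

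Pol III, which makes transfer RNA and 5S ribosomal RNA, had 6 of 11 specific subunits called lower, 2 higher and 3 not (Polr3a, Polr3b and Crcp), with a median of -0.50, where 62.9% of all genes were called. Polr3d (-2.05) and Polr3e (-1.87) were lowest, and Polr3gl (0.68) and Polr3c (0.52) highest. Among 11 Pol III factors 4 were lower, 3 higher and 4 not called, with a median of -0.13, a share called that was near that of all genes. Gtf3c5, a subunit of TFIIIC, was at -2.74, but it had differed by -0.85 at 0 h (adjusted p = 1.33e-05), and Bdp1 was at -0.64. Maf1, the repressor of Pol III, was higher by 1.10 (SE 0.11, adjusted p = 1.85e-09) and Brf1, a subunit of TFIIIB, by 0.53.

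**Figure D4:**
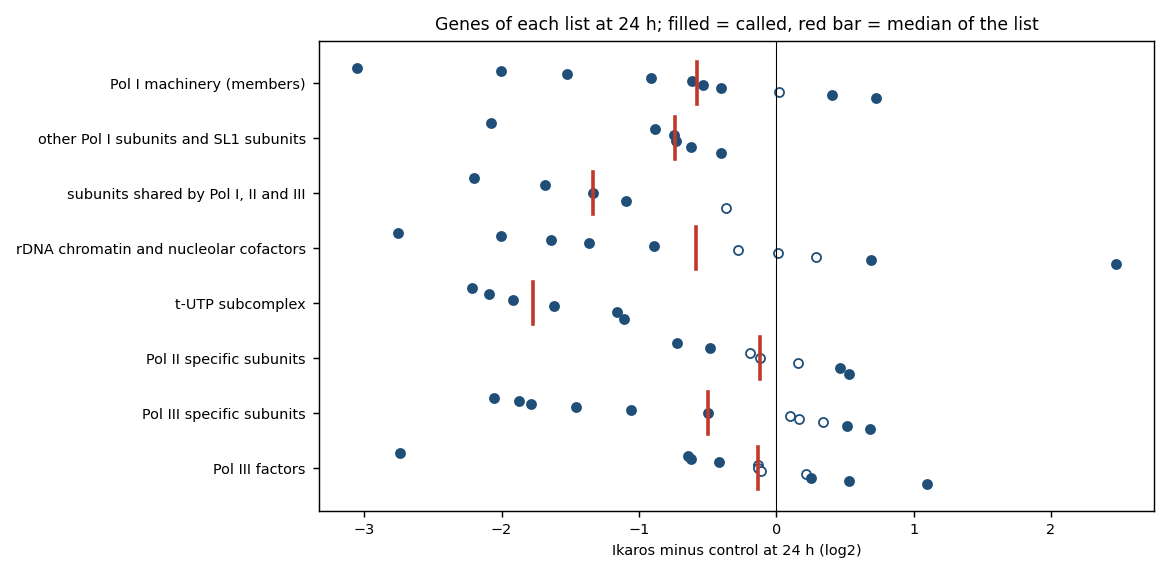
Ikaros minus control difference at 24 h in log2 units (horizontal axis) for the 10 members and for 7 lists of related genes, 1 point per gene. Filled points were called by limma, open points were not, and the red bar is the median of the list. The medians run from -1.77 for the t-UTP genes to -0.12 for the Pol II specific subunits.

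The 2 largest subunits of the 3 polymerases, which are related to each other in sequence, were set side by side. At 24 h Polr2a was at 15.28, 15.31 and 15.33 in control and 15.96, 15.89 and 15.67 in Ikaros libraries, so the largest Pol II subunit was higher (0.53, adjusted p = 0.0346) while Polr1a was lower by the 2.00 given above. Polr2b was at 14.36, 14.46 and 14.23 in control and 14.57, 14.42 and 14.54 in Ikaros libraries, a difference of 0.16 (SE 0.16, adjusted p = 0.392). Polr3a differed by 0.10 (SE 0.17, adjusted p = 0.642) and Polr3b by 0.16 (SE 0.14, adjusted p = 0.312), and neither was called at any of the 6 times. The difference between these genes and Polr1a or Polr1b was not itself tested.

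**Figure D5:**
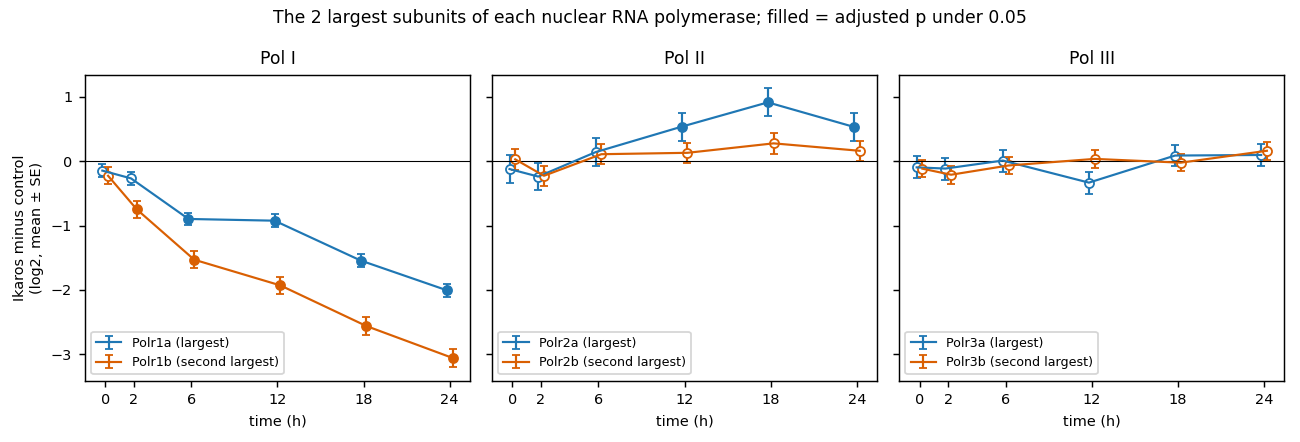
Ikaros minus control difference in log2 units (vertical axis, mean ± SE from limma) for the largest and second largest subunit of Pol I, Pol II and Pol III against time in hours. Filled points have an adjusted p under 0.05. The Pol I subunits end at -2.0 and -3.06, and those of Pol III stay between -0.33 and 0.16.

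Of 10 cofactors that act around Pol I on the ribosomal DNA or in the nucleolus, 5 were called lower at 24 h, 2 higher and 3 not (Smarca5, Ttf1 and Kdm2a), with a median of -0.58, and the share called was near the 62.9% of all genes. Ptrf, a transcript release factor that is also known as the caveolar protein cavin 1, was at -2.75 (SE 0.38) and had been called at 0 h (-1.53). Its 24 h levels were low, 7.53 ± 0.21 (SD, n = 3) in control and 4.77 ± 0.90 in Ikaros cells, where the median gene was at 11.72. Nolc1, a nucleolar phosphoprotein, was at -2.0. Baz2a, the subunit of the nucleolar remodelling complex that silences ribosomal DNA repeats, went the other way. It was at 13.15 ± 0.24 (SD, n = 3) in control and 15.62 ± 0.05 in Ikaros cells at 24 h, a difference of 2.48 (SE 0.17, adjusted p = 8.84e-13), and its difference had been 0.40 at 0 h and 1.00 at 6 h. Phf8, a histone demethylase of active ribosomal DNA, was higher by 0.69. All 6 genes of the t-UTP subcomplex, which joins the nascent ribosomal RNA and is needed for its transcription, were called lower, against 31.9% of all genes, with a median of -1.77. Wdr75 (-2.21) and Cirh1a (-2.10) were lowest, and Nol11 (-1.16) and Utp15 (-1.11) least changed.

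Myc, which encodes a transcription factor known to raise the expression of Pol I genes, differed by -0.07, -1.63, -1.25, -1.95, -2.32 and -2.52 over the 6 times (SE 0.17). Its part in the differences of the members was not tested.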

How the data were processed

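Total RNA of the B3 control and Ikaros cells was made by the authors into stranded, oligo dT selected libraries and sequenced as 75-base pairs in 36 libraries. The fragments were trimmed, mapped to the mm10 genome with TopHat2 keeping unique best hits, assigned to genes with HTSeq in an intersection mode, normalized with cqn, which corrects GC content and gene length effects, and then corrected for library preparation by ComBat in its non-parametric form. The tool names and the build are those of the submitters' processing notes and methods, and the versions and the strand setting of the counting are not given in the sources used here. The values that the authors deposited are log2 expression, the scale that cqn gives (no base is named in the table), with a constant added so that the lowest value is 1. No counts were used, so depth and counting error are unknown. The adjustment made before deposition removes spread that a later fit cannot see, so SEs may be too small. The alternative with library preparation as a covariate fits again a factor for which these values had already been corrected.

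Groups were taken from the sample labels, and all columns of the table were mapped to a sample. Every comparison came from 1 model in limma 3.58.1 (R 4.3.3; functions lmFit, contrasts.fit, eBayes) that estimated 12 group means. P-values are two-sided and adjusted by the Benjamini-Hochberg method over the 12762 genes, and the scripts were tested on simulated data. Lists were described by counts and medians beside those of all genes, with no set test. The members and the lists were chosen with earlier results of these data known. The text names all members, the 2 genes with the largest fall and the 2 with the largest rise at 24 h in each list (where none rose, those with the smallest fall), any left uncalled where these are 3 or fewer, the 5 genes most like the mean member profile and the 3 most like Polr1b, with Myc and Ikzf1 as background. Gene positions came from GENCODE M21 on GRCm38, the same build as mm10, where 98.7% of the genes were found by identifier, and promoters from RefSeq on GRCm38.p6. Other tools were Python 3.11.15, pandas 2.3.3, numpy 2.4.6 and matplotlib 3.10.9.

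In the labels, control and Ikaros cultures grown in the same batch carry the same number. The libraries were paired by it for the correlations given next and for the differences within culture batches. The main limma model held no term for batch or pairing. Over the 18 pairs, deviations from the group means correlated across genes between -0.06 and 0.51, with a median of 0.13, and 12 pairs were above 0.1. The alternatives were culture batch as a replicate block, the same with the 0 h occasions kept separate, library preparation (6 runs, from the quality sheet of the study) as a covariate, quantile normalization, a filter that left 9571 genes by dropping those under the 25th percentile of mean level, eBayes with trend and robust settings, fits of the compared groups alone and fits without each replicate in turn.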

Additional observations from a re-analysis of the deposited data

Results flagged for a closer look

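The results that stand out by the test of the difference between time points are the 18 changes of the Ikaros minus control difference from 0 h that limma called at an adjusted p under 0.05. They are log2 values, and all were tested in one fit over the 12762 genes. Polr1b was at -1.30, -1.70, -2.33 and -2.83 from 6 h to 24 h, and Polr1a at -0.75, -0.78, -1.40 and -1.86 over the same times. Taf1d was at -1.23, -2.09 and -1.65 over the last 3 times. Ubtf was at -0.70 at 12 h and -0.63 at 18 h, and its 24 h change was not called (adjusted p = 0.260). Rrn3 was at -0.65 at 18 h and -0.92 at 24 h. At 24 h, Polr1c was at -0.52, Polr1d at 0.49 and Taf1b at 0.88. The 0 h cells were collected on other occasions than the later ones, so this contrast also holds the difference between occasions so far as it differed between the lines, and that part was not tested. No group has the 4 libraries that a search for single outlying libraries needs.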

How the results depend on the processing

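The 45 called values of single members for Ikaros against control and for the change from 0 h kept their direction under every alternative. All 45 kept their call under both blocks, the filter on low values, quantile normalization and the trend and robust fit, while 4 lost it in fits of the compared groups alone, 11 with library preparation as a covariate, 10 without replicate 1, 13 without replicate 2 and 5 without replicate 3. Counts of members called moved most as follows. Under the replicate block for culture batch, the count for Ikaros against control at 0 h went from 0 to 1, that for Ikaros cells against their own 0 h at 2 h, which is also the first step, from 1 to 3, that for control cells at 6 h from 0 to 2 and that for the step to 24 h from 1 to 2. With the 0 h occasions separate in the block, Ikaros against control at 0 h had 1, the change from 0 h at 2 h had 1 in place of 0 and the step to 24 h had 3, and lines could not be set against their own 0 h. The culture batch block also added 1 call each for Ikaros against control at 2, 6, 12 and 18 h, for the change from 0 h at 12, 18 and 24 h and for Ikaros cells against their own 0 h at 6 and 12 h, removed 1 (Taf1b in Ikaros cells at 24 h against 0 h) and changed no other call. With library preparation as a covariate, the counts were 1 and 6 for Ikaros against control at 2 and 24 h, 3 and 4 for the change from 0 h at 18 and 24 h (5 and 7 before), 0 for Ikaros cells at 2 h and the first step, 1 for the step to 12 h and 4 for the F test. In fits of the compared groups alone, which allow no F test, they were 1 at 2 h and 4 at 12 h for Ikaros against control, and 0 for Ikaros cells at 2 h and the steps to 2, 6 and 12 h. The filter gave 2 in the step to 24 h, and 36 libraries in place of 12 means left 1 of the 5 genes most like the members.

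Leaving out 1 replicate in turn gave 0 to 1 members for Ikaros against control at 0 h, 1 to 2 at 2 h, 4 to 8 at 12 h and 6 to 8 at 24 h. It gave 2 to 4, 3 to 6 and 4 to 7 for the change from 0 h at 12, 18 and 24 h, 0 to 1 and 5 to 8 for Ikaros cells against their own 0 h at 2 and 24 h, 0 to 1, 1 to 2, 0 to 2 and 0 to 1 for the steps to 2, 6, 12 and 24 h, 3 to 7 for the F test and 3 to 7 for the Pol III factors at 24 h. Why these calls moved was not tested, but such fits have fewer samples.

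Over all genes, 1063, 2432, 4759, 5850, 7423 and 8024 were called for Ikaros against control over the 6 times in order. With library preparation as a covariate these were 443, 1283, 2585, 4340, 6065 and 6645. Without replicate 1 they were 432, 962, 2640, 4402, 6201 and 6576, and without replicate 2 318, 804, 2706, 3769, 5432 and 6248. Without replicate 3 they were 1204, 2719, 4971, 5921, 7482 and 8054. With the compared groups alone they were 1211, 860, 2150, 4281, 6730 and 8078. For the change from 0 h, the comparisons with a line's own 0 h, the steps and the F test, such counts under the alternatives are not given here. The member counts above for those comparisons therefore stand without a share of all genes. The number of libraries limits what can be called.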

Other observations

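In control cells the group means of the members varied over the times by 0.14 (Polr1a) to 0.74 (Taf1d) on the log2 scale, and 8 of the 10 stayed within 0.37, all but Taf1d and Taf1b (0.58). In Ikaros cells the span ran from 0.42 for Taf1c to 2.65 for Polr1b, and it was wider than in control cells for all 10 genes. For Taf1c it was 0.42 against 0.37 in control cells, and for Taf1b 0.70 against 0.58. Both gaps are smaller than the SD within any group of that gene. The spans were not tested, and the share of all genes with a wider span in Ikaros cells was not counted.

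The lists around the members were also read as changes of the difference from 0 h. Of the 6 t-UTP genes 0 had changed at 2 h, 2 at 6 h and all 6 at 12, 18 and 24 h, all downwards, with medians of -0.18, -0.53, -1.03, -1.37 and -1.70. Of the 5 subunits shared by the 3 polymerases 1 had changed at 6 h, 2 at 12 h and 4 at 18 and 24 h, all downwards, with a median of -1.23 at 24 h. Of the 7 Pol II specific subunits 2 went down and 1 up by 24 h, with a median of -0.05. Among all genes 3.1%, 15.9%, 29.7%, 43.0% and 48.4% were called at the 5 times.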
